A study of Mus musculus with 36 samples.

Results

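In mouse embryonic stem cells, 3165 regions held a Sox2 peak and a Nanog peak both in serum and after 24 h of 2i, and no peak of either Oct4 list. They were selected on the presence or absence of the authors' peaks, by merging 6 peak lists (Oct4, Sox2 and Nanog with antibody lot 1, each at 24 h of 2i and in serum) into 49202 regions wherever peaks overlapped by at least 1 bp on chromosomes 1 to 19, X and Y. Of these, 7660 regions (15.6%) had Sox2 and Nanog in both media. The Oct4 lists split the 7660 into the 3165 Sox2-Nanog regions without an Oct4 peak (41.3%), 1556 with Oct4 in 1 medium (20.3%) and 2939 with Oct4 in both media (38.4%). The Sox2-Nanog regions without Oct4 were thus 6.43% of all merged regions. Among the 1556, Oct4 was called only at 24 h in 1242 and only in serum in 314.

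Oct4, Sox2 and Nanog are transcription factors that together hold embryonic stem cells in the pluripotent state. Oct4, a POU-domain factor, and Sox2, an HMG-box factor, are known to bind DNA as a pair at a composite motif, while Nanog, a homeodomain factor, is found at many of the same enhancers. Sites held by all of these factors are known as enhancers of the core pluripotency network.

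The study asked how the factors and histone marks were rearranged when the cells went into 2i. KH2 cells, an established mouse embryonic stem cell line, were grown in serum medium with LIF on irradiated fibroblast feeders, or moved to 2i with LIF for 24 h or 3 passages. 2i is a serum-free medium with a pair of kinase inhibitors that favours the naive state. Nanog with lot 2 was mapped in DNMT triple knockout (TKO) cells at 24 h of 2i, in KH2 cells at 24 h of 2i, and in the library labelled GFP-high, from KH2 cells in serum. TKO cells lack the DNA methyltransferases and are another line, so the knockout and the line cannot be told apart. The labels do not say what drives the GFP, nor how many clones were used. No marker check of the cells was made, since the lists used here hold peaks and the RNA samples of the series were not used.

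Each of the 14 lists was made by the authors and stands for 1 condition, with no value per replicate, so no difference between conditions could be tested. The lists held 5011 to 41755 peaks on the main chromosomes. Their lowest −log10 q, the authors' measure of how clearly a peak stands out, was 85.9 for Oct4 at 24 h and 86.4 for Oct4 in serum, against 3.69 to 27.6 in the other lists. "Without Oct4" therefore means that no peak passed a high bar, and says nothing of weaker Oct4 binding. Read depth is unknown. Regions are not replicates, and the 95% intervals below, exact binomial for shares and Newcombe's for differences, cover counting error only.

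The absence of an Oct4 peak went with weaker Sox2 and Nanog peaks. The 7660 regions were cut into quartiles by the authors' fold enrichment, the ratio of ChIP signal to the control at a peak. By Sox2 fold at 24 h, the share without Oct4 was 66.7%, 49.9%, 34.5% and 14.0%, going up through the quartiles. By Sox2 fold in serum it was 52.3%, 47.4%, 39.2% and 26.3%. By Nanog fold at 24 h the shares were 56.6%, 45.6%, 38.2% and 24.9%, and by Nanog fold in serum 57.3%, 46.4%, 38.4% and 23.1%. The Sox2 list of 24 h gave the widest span. These lists chose the regions, so the shares are a description. Even in the top quartile by Sox2 at 24 h, with folds of 11.7 or more, 268 of 1915 regions had no Oct4 peak.

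Median Sox2 fold was 6.00 at 24 h (quartiles 4.87 and 8.05) and 10.6 in serum (8.23 and 14.7) in the Sox2-Nanog regions without Oct4. In the Oct4-Sox2-Nanog regions of both media it was 10.9 at 24 h and 14.9 in serum. Median Nanog fold in the regions without Oct4 was 21.6 at 24 h (13.9 and 31.4) and 18.4 in serum (12.2 and 28.3). The Oct4-Sox2-Nanog regions had Nanog medians of 30.3 and 29.7. Folds of different lists need not share a scale, so each comparison is within a list. Of the regions without Oct4, 10.4% passed the Oct4-Sox2-Nanog median for Sox2 at 24 h and 24.2% passed it for Sox2 in serum. For Nanog, 27.1% passed it at 24 h and 22.4% in serum. The groups overlap widely in all 4 lists, and the 2 sets lie farthest apart for Sox2 at 24 h.

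**Figure D1:**
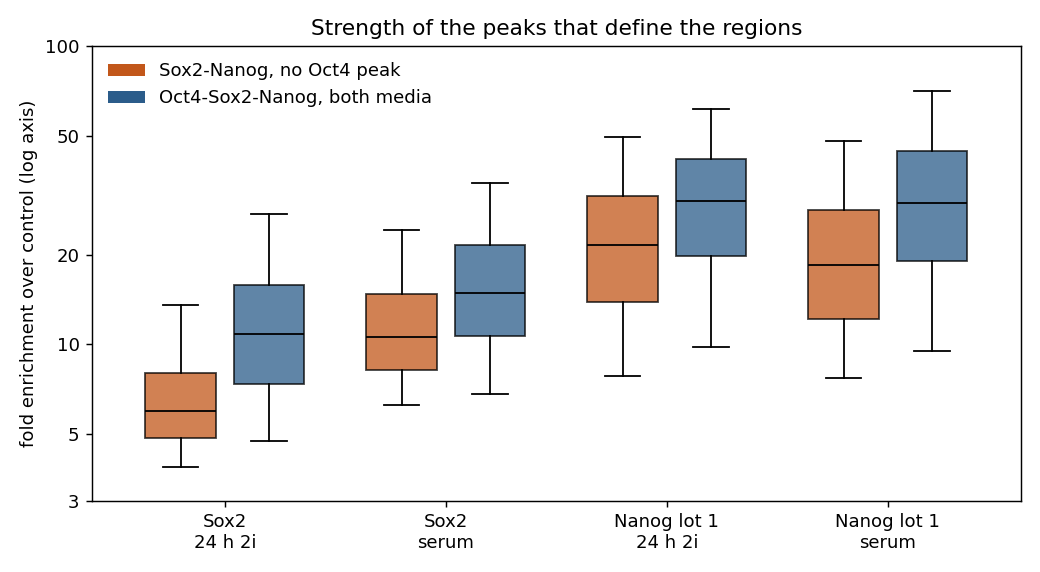
Fold enrichment over the control (log axis) in the 4 lists that define the regions, for Sox2-Nanog regions without an Oct4 peak (orange, n = 3165) and Oct4-Sox2-Nanog regions of both media (blue, n = 2939). Boxes span the quartiles with the median as a line, and whiskers reach the 5th and 95th percentiles. The orange median is lower in every list, at 6.00 against 10.9 for Sox2 at 24 h.

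Many of the Sox2 calls at 24 h were near the floor of that list. In 1626 of the 3165 regions (51.4%) the Sox2 peak of largest fold at 24 h had a −log10 q under 10. The floors of the other 3 lists lie above 10. A minimum of 10 for every peak left 1542 regions. Raising the shallower list of each factor to the floor of the other one left 762, and bringing all 6 lists to the length of the shortest left 421.

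At the edge of the rule, 3 members lay 13, 16 and 27 bp from an Oct4 peak. The first, chr6:134989991-134991283 (mm9, as all positions here), had Sox2 folds of 4.89 at 24 h and 11.7 in serum and Nanog folds of 17.8 and 17.9. The second, chr17:82598310-82598814, was weaker, with Sox2 folds of 4.20 and 7.46 and Nanog folds of 13.0 and 9.09. The third, chr10:77065553-77066396, had Sox2 folds of 6.66 and 21.3 and Nanog folds of 36.6 and 52.2. Just outside the rule were regions whose only Oct4 peak, at 24 h, had the lowest −log10 q of its list, 85.9, and an Oct4 fold of 12.6. Of these, chr5:44251335-44252636 had Sox2 folds of 13.1 and 17.6 and Nanog folds of 31.4 and 36.0, and chr9:121243673-121245552 had Sox2 folds of 5.32 and 14.2 and Nanog folds of 22.7 and 20.6. The folds of Sox2 and Nanog on either side of the rule thus overlapped.

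Most of the regions were not next to an Oct4 site. The median distance to the nearest Oct4 peak was 67582 bp, against 76208 bp over all 40450 merged regions without Oct4. An Oct4 peak lay within 1000 bp of 68 regions (2.15%, background 1.88%), within 10000 bp of 451 (14.2%, background 12.6%) and within 100000 bp of 1928 (60.9%, background 57.8%). These shares are close to the background. The median distance to an Oct4-Sox2-Nanog region of both media was 217770 bp, against 242022 bp for all merged regions without Oct4.

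The Sox2 and Nanog summits, the points of highest signal, nearly coincided. They were a median of 31 bp apart at 24 h (quartiles 13 and 61) and 25 bp in serum (11 and 48), and 88.8% and 94.4% of regions had them within 100 bp. In the Oct4-Sox2-Nanog regions the medians were 28 and 24 bp. The position also held between media, with a median of 19 bp between the Nanog summits and 29 bp between the Sox2 summits at 24 h and in serum. Nanog summits at 3 passages were a median of 26 bp from those in serum, and Sox2 summits 28 bp. The length of sonicated fragments limits how finely such distances can be read. Between the TKO and KH2 Nanog lists of lot 2 the median distance was 43 bp, over the 1790 regions called in both, and 82.2% were within 100 bp. In the 2443 Oct4-Sox2-Nanog regions called in both it was 36 bp.

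**Figure D2:**
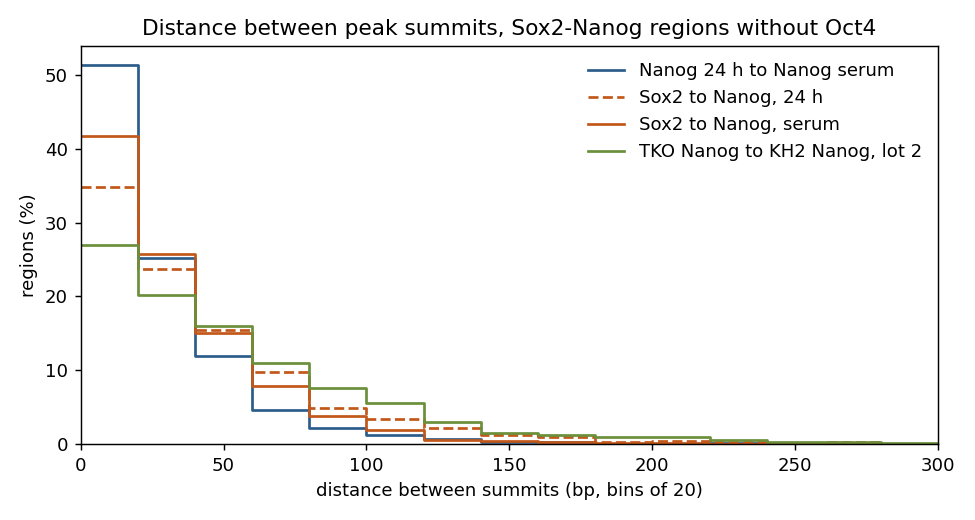
Share of Sox2-Nanog regions without Oct4 (y axis, %) by the distance between the summits of a pair of lists (x axis, bins of 20 bp; the few distances above 300 bp are not drawn). The first bin is the tallest for every pair, and the TKO-KH2 line, with a median of 43 bp, lies farthest to the right.

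The regions were narrower than Oct4-Sox2-Nanog regions but wider than all merged regions, and most stood alone. Their median width was 853 bp, against 1334 bp for Oct4-Sox2-Nanog regions, 656 bp for the 7462 regions with Nanog alone in both media, and 639 bp for all merged regions. A region merged from more lists has more chances to be wide. Exactly 1 peak of each of the 4 lists was present in 3083 regions (97.4%). With a limit of 10000 bp between neighbours, 2958 regions stood alone, 96 runs held 2 and 5 runs held 3. Runs were not counted in the other sets, so these counts are not read as particular to the regions without Oct4. The run on chrX:7578873-7598037 spanned 19165 bp, with Nanog folds of 17.3 to 29.6 at 24 h and 17.4 to 41.1 in serum, and had 1 serum Oct4 peak between its members. The run on chr14:68498963-68512627 spanned 13665 bp, held no Oct4 peak, and all 3 of its members kept Sox2 at 3 passages. No chromosome held a share of the regions whose interval lay clear of that of all merged regions.

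The 10 strongest regions had a mean percentile of fold, within the 4 full lists, of 97.4 to 99.3. At the top, chr5:19922799-19923838 had Sox2 folds of 26.7 at 24 h and 40.4 in serum and Nanog folds of 74.0 and 72.3. Its Nanog folds outside the rule were 62.2 at 3 passages, and 26.8 in TKO cells, 49.0 in KH2 cells at 24 h and 74.4 in GFP-high serum with lot 2. Sox2 at 3 passages had a fold of 22.5. The nearest Oct4 peak was 51274 bp away, and no H3K4me3 list met the region. It was thus called in all 5 factor lists that did not define it.

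The region chr3:39212246-39213027 was called in every factor list but that of TKO cells. With lot 1 its Nanog fold was 50.5 in serum, 97.2 at 24 h, the highest of all 3165 regions there, and 32.2 at 3 passages. With lot 2 its Nanog fold was 27.2 in KH2 cells at 24 h and 20.5 in GFP-high serum. Its Sox2 folds were 46.2 in serum, 25.1 at 24 h and 15.6 at 3 passages.

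The region chr6:127199776-127200766 had a Nanog fold of 78.2 at 24 h and 127.2 in serum, the highest of the whole serum list. Its Sox2 folds were 17.4 at 24 h and 51.8 in serum, and its Nanog fold in TKO cells was 17.3, against 37.1 in KH2 cells with the same lot. The region chr4:135644630-135645702 had the highest serum Sox2 fold of the 3165, 57.3, with 17.7 at 24 h and 21.2 at 3 passages. The region chr1:116745860-116747143 had Nanog folds of 121.5 in TKO cells, 65.7 in KH2 cells at 24 h and 118.2 in GFP-high serum, all with lot 2. The other 5 of the leading 10 were on chromosomes 3, 5, 10, 13 and 16, with Nanog folds of 43.5 to 63.3 at 24 h and 46.6 to 92.6 in serum. All but the one on chromosome 3 from 39212246 met all 5 factor lists outside the rule, and none of the 10 met an H3K4me3 peak. The one on chromosome 13, chr13:14381908-14382986, lay 1009 bp from an Oct4 peak.

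How far the 8 lists that played no part in the choice also covered these regions was asked next. Nanog at 3 passages, with lot 1, was called in 3007 of the 3165 (95.01%, 94.2 to 95.7). The background, the share of all merged regions with such a peak, was 58.8%. Oct4-Sox2-Nanog regions reached 98.7% and Nanog-alone regions 70.5%. With lot 2 at 24 h in KH2 cells, Nanog was called in 71.9% (70.3 to 73.4) of the regions without Oct4, against 90.6% of Oct4-Sox2-Nanog regions, 37.8% of Nanog-alone regions and a background of 38.2%. In GFP-high serum with lot 2 the shares were 91.1% (90.0 to 92.0), 97.0% and 52.0%, with a background of 45.1%. The regions without Oct4 thus stood between the other sets in each of these Nanog lists, and nearer to the Oct4-Sox2-Nanog regions. The sets had the same order in Nanog strength. Median Nanog fold in serum with lot 1 was 9.80 in Nanog-alone regions, 18.4 in the regions without Oct4 and 29.7 in Oct4-Sox2-Nanog regions. The medians at 24 h with lot 1 had this order too. The part of Nanog strength was not tested in any comparison with Nanog-alone regions.

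**Figure D3:**
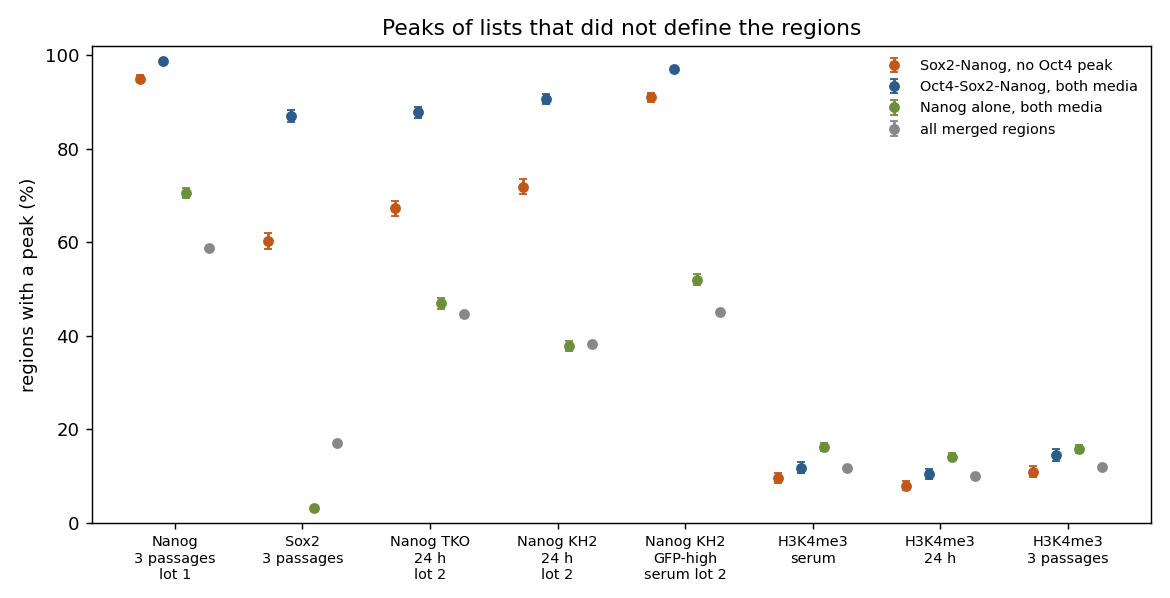
Share of regions with a peak (y axis, %) in the 8 lists that did not define the regions (x axis), for Sox2-Nanog regions without Oct4 (orange), Oct4-Sox2-Nanog regions of both media (blue), Nanog-alone regions of both media (green) and all merged regions (grey). Bars are exact binomial 95% intervals. Orange lies below blue and above green in the factor lists, with the widest gap to blue, −26.7 points, for Sox2 at 3 passages, and below green in the H3K4me3 lists.

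All 5 factor lists outside the rule called 1296 of the regions (40.9%, background 11.7%), against 75.1% of Oct4-Sox2-Nanog regions. All 4 Nanog lists among them called 1749 (55.3%, background 22.5%). None of the 8 lists called 30 regions (0.948%, background 22.5%). Among these 30 was the only region on Y, chrY:2792631-2797552, which at 4922 bp was also the widest of the 3165. It had Sox2 folds of 33.1 at 24 h and 8.99 in serum and Nanog folds of 23.8 and 24.0. The Oct4 lists held no peak on Y, so their absence there does not tell this region from any other on Y. Another of the 30, chr4:147695430-147696096, had Nanog folds of 31.9 at 24 h and 18.5 in serum.

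Of the 8 lists, Sox2 after 3 passages of 2i had the widest difference between the sets as the lists stand, but not under each limit on the defining lists. It was called in 1908 (60.3%, 58.6 to 62.0), against 87.0% of Oct4-Sox2-Nanog regions, 3.23% of Nanog-alone regions and a background of 17.1%. The difference from the Oct4-Sox2-Nanog regions was −26.7 points (−28.8 to −24.6). The 1556 regions with Oct4 in 1 medium came between, at 71.5%. Since the sets differ in peak strength, the difference was also taken within quartiles of Nanog serum fold, where it was −21.4, −25.5, −22.1 and −22.6 points. Within quartiles of Sox2 serum fold it was −19.3, −20.9, −21.5 and −13.1 points. It was below 0 at every level of serum fold of both factors, with intervals clear of 0. Quartiles of Sox2 fold at 24 h, the list in which the sets lie farthest apart, were not used. The part of Sox2 strength at 24 h in the difference was therefore not tested. The list of Sox2 at 3 passages has 1 sample in the labels and 8749 peaks, against 13128 in serum and 15310 at 24 h, and the part of its length was not tested. Where the lists that defined the regions were brought to the length of the shortest, the difference was −1.53 points over the 421 regions left, narrower than that of Nanog in TKO cells, −4.73 points. With the higher floor within each factor it was −3.86 points over 762 regions, again narrower than that of Nanog in TKO cells, −9.33 points. A minimum −log10 q of 10 was set on every list, that of Sox2 at 3 passages included. The Sox2 difference was then −17.1 points over 1542 regions.

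Among the regions without Oct4, those with Sox2 at 3 passages had stronger Sox2 peaks before. Their median Sox2 fold was 6.91 at 24 h and 11.9 in serum, against 5.20 and 9.22 in the 1257 regions without such a peak. Through the quartiles of Sox2 fold at 24 h, Sox2 was called at 3 passages in 40.7%, 49.4%, 64.0% and 87.4%. Nanog was still called at 3 passages in 1135 of the 1257 regions without Sox2 (90.3%, 88.5 to 91.9, background 58.8%). Where Nanog was called at 3 passages, its median fold there was 17.8 in the regions with Sox2, against 11.5 in those without it. A region could thus lose its Sox2 call and keep its Nanog call. At 3 passages the Nanog list holds 33185 peaks and the Sox2 list 8749, and the part of list length in this was not tested.

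**Figure D4:**
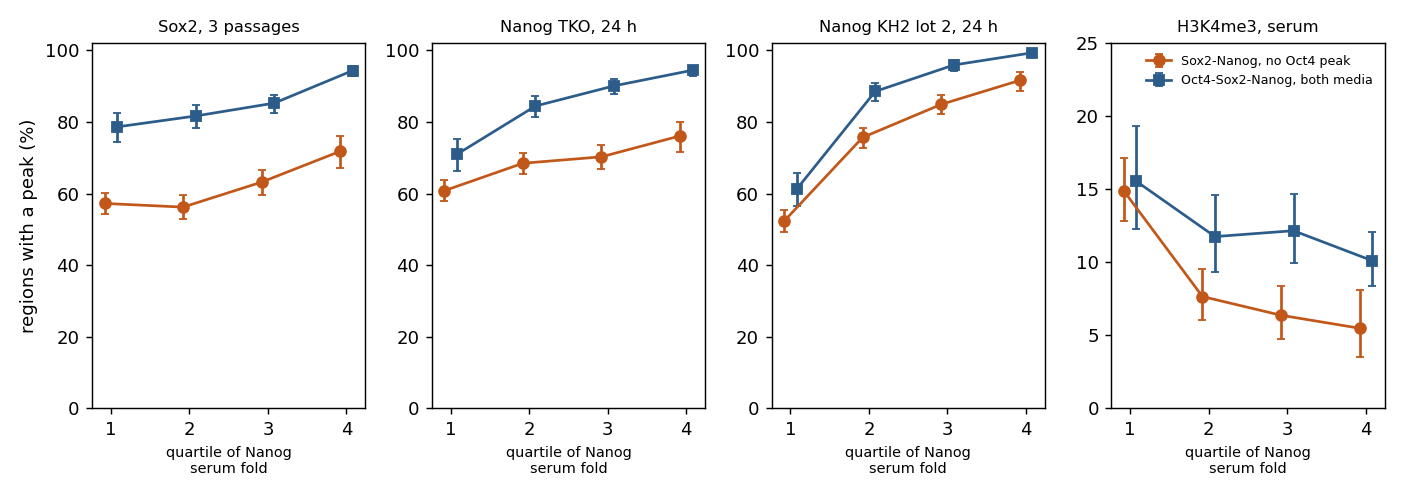
Share of regions with a peak (y axis, %; the H3K4me3 panel ends at 25%) in 4 lists outside the rule, by quartile of Nanog serum fold (x axis, 1 lowest), for Sox2-Nanog regions without Oct4 (orange) and Oct4-Sox2-Nanog regions of both media (blue). Bars are exact binomial 95% intervals. The gap for Sox2 at 3 passages is −25.5 to −21.4 points at each level, and the gap for Nanog in TKO cells is −10.2 points in the lowest quartile and −19.8 to −16.0 points in the others.

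For Nanog with lot 2 at 24 h in KH2 cells the difference between these sets was −18.7 points over all regions, and −8.92, −12.9, −11.0 and −7.72 points within the quartiles of Nanog serum fold, all with intervals below 0. In GFP-high serum it was −5.95 points, and −3.63, −3.24, −1.37 and −0.239 points within the quartiles. There the intervals of the lowest and highest quartiles included 0. With the 6 defining lists made equally long, the differences were −1.67 points at 24 h and 0 points in GFP-high serum, and with the higher floor within each factor −4.81 and −0.645 points.

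In TKO cells at 24 h of 2i, Nanog was called in 2129 of the regions without Oct4 (67.3%, 65.6 to 68.9), against 87.8% of Oct4-Sox2-Nanog regions, 46.9% of Nanog-alone regions and a background of 44.7%. With the same lot, 1790 regions were called in both TKO and KH2 cells (56.6%, background 28.3%), 339 only in TKO cells (10.7%, background 16.4%), 485 only in KH2 cells (15.3%, background 9.95%) and 551 in neither (17.4%, background 45.4%). Over all merged regions, calls only in TKO cells thus outnumbered those only in KH2 cells. Oct4-Sox2-Nanog regions had 4.66% only in TKO cells and 7.49% only in KH2 cells. The TKO list held 38518 peaks and the KH2 list of this lot 21893, and the part of list length was not tested. Of the 2275 called in KH2 cells, 78.7% (76.9 to 80.3) were also called in TKO cells, against 91.7% for Oct4-Sox2-Nanog regions, 65.9% for Nanog-alone regions and 74% for all merged regions. A gap was present at each level of strength. Through the quartiles of KH2 lot 2 fold the share was 69.3%, 77.4%, 88.1% and 89.2% in the regions without Oct4, against 78.6%, 89.5%, 95.1% and 97.1% in Oct4-Sox2-Nanog regions. The difference over all regions, −20.5 points, was −4.73 points with the 6 defining lists made equally long and −9.33 points with the higher floor within each factor.

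The share with a TKO peak moved with the chromosome. It was 81.8% on chromosome 6, 80.9% on chromosome 8 and 80.7% on chromosome 19, and 59.4% to 71.5% on the other chromosomes apart from Y. With the same lot, the KH2 shares on these 3 chromosomes were 75.2%, 75.7% and 79.5%, against 66.0% to 79.0% on the others. The TKO share of all merged regions was not taken by chromosome, so these shares are not read as particular to the regions without Oct4. A part of chromosome number in this was not tested. Without chromosomes 6 and 8 the TKO share was 65.7% in the regions without Oct4, against 87.2% in Oct4-Sox2-Nanog regions.

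The order of the regions by fold was next compared between 24 h and serum. Each list's folds were ranked among the same 7660 Sox2-Nanog regions, and a move of more than 25 percentile points was counted. Which regions are among the 7660 still depends on the length and floor of each list. The lowest −log10 q of Sox2 was 3.69 at 24 h and 17.3 in serum. The part of these floors in the moves was not tested. These lists chose the regions, and the moves are a description. For Sox2, 321 regions without Oct4 (10.1%, with 16% of all 7660) moved up at 24 h and 764 (24.1%, with 16.5% of all) moved down, against 17.5% and 9.60% of Oct4-Sox2-Nanog regions. For Nanog, 466 (14.7%, with 13% of all) moved up and 409 (12.9%, with 11.1% of all) moved down, against 6.29% and 9.83% of Oct4-Sox2-Nanog regions. The regions without Oct4 thus moved down more often than up for Sox2 and about equally both ways for Nanog. Both factors moved up in 130 regions and down in 219, while Sox2 moved up and Nanog down in 12, and the reverse in 28. In these regions the factors' moves therefore mostly had the same direction where both were large. The joint counts were not taken over all 7660, so they are not read as particular to the regions without Oct4.

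**Figure D5:**
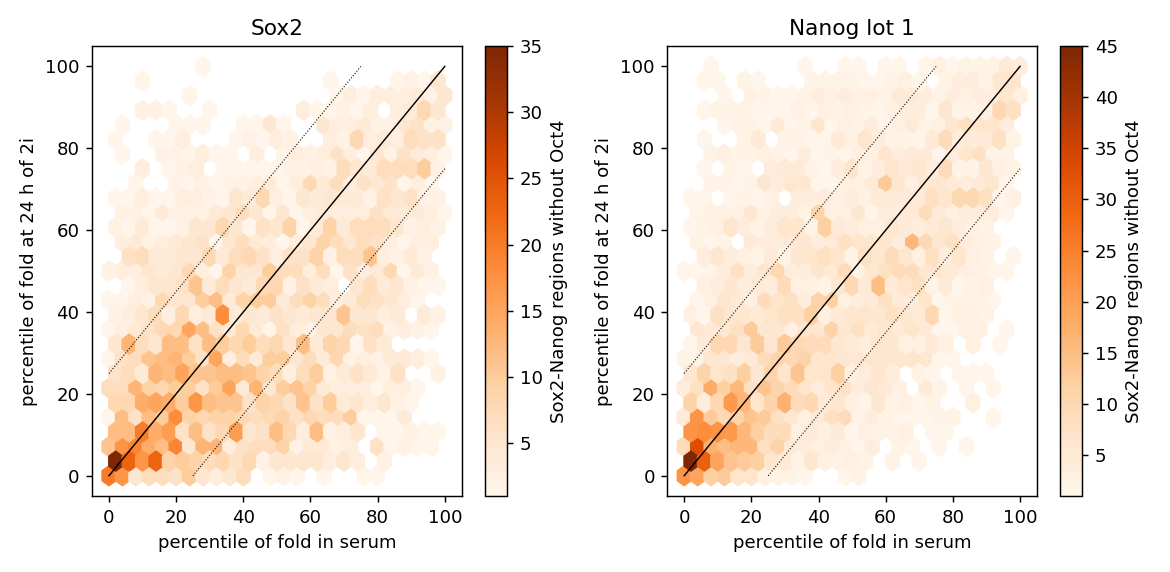
Percentile of fold at 24 h of 2i (y axis) against that in serum (x axis) among the 7660 Sox2-Nanog regions of both media, for Sox2 (left) and Nanog lot 1 (right), drawn for the 3165 regions without Oct4. Colour gives the number of regions, the solid line equal rank and the dotted lines a move of 25 points. For Sox2 more regions lie below the lower dotted line (764) than above the upper one (321).

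The same regions could be followed in Nanog lists that did not set these ranks. Of the 466 regions that moved up for Nanog, 87.8% (84.4 to 90.6) were called with lot 2 at 24 h in KH2 cells, against 69.8% of those within 25 points and 65.3% of those that moved down. In TKO cells at 24 h the shares were 82.8% (79.1 to 86.1), 67.5% and 48.2%. In GFP-high serum the groups were nearer, at 94.6%, 89.3% and 96.8%, and the median fold of the called regions was 17.2 in those that moved up, 17.0 in those within 25 points and 21.1 in those that moved down. At 24 h with lot 2 the median folds were 17.4, 12.8 and 10.6. With lot 2 at 24 h, the regions that had moved up thus had the highest share and median fold of the 3 groups. In GFP-high serum the regions that had moved down had the highest of both. The groups were cut on lot 1 ranks at 24 h and in serum, so these orders are a description. The part of peak strength was not tested, and lot 1 folds were not taken by group. The shares were not taken in the other Sox2-Nanog regions, so they are not read as particular to the regions without Oct4. For Sox2 at 3 passages, 74.1% of the regions that moved up were called, 57.7% of those within 25 points and 61.4% of those that moved down.

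Over the regions called in both lists of a pair, the rank correlation of fold (Spearman's rho, across regions, which are not independent) was lower than in the Oct4-Sox2-Nanog regions. Between 24 h and serum it was 0.46 for Sox2 and 0.61 for Nanog lot 1, against 0.64 and 0.79. Between 3 passages and 24 h it was 0.58 for Sox2 and 0.76 for Nanog, against 0.76 and 0.88. Between TKO and KH2 cells with lot 2 it was 0.47, against 0.67. Between Sox2 and Nanog lot 1 it was 0.60 in serum and 0.49 at 24 h, against 0.61 and 0.57, so the sets were close in serum. The part of peak strength or of depth in these differences was not tested.

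Single regions showed how far folds could lie apart. Their place is given as the percentile of fold within each list, and lists differ in length. In chr3:115392740-115393477, the Sox2 fold was 15.1 at 24 h (percentile 92.4) and 5.73 in serum (4.78), and the Nanog fold 20.4 and 10.4. In chr9:67237875-67238578, Sox2 was 10.5 and 5.79 and Nanog 35.4 and 9.10, with a Nanog fold of 47.1 in TKO cells and 18.0 in KH2 cells with lot 2. In chr9:31783471-31784333, by contrast, the Sox2 fold was 3.79 at 24 h (percentile 2.77) and 19.8 in serum (88.7), while Nanog was 30.1 and 51.4. There Sox2 was called at 3 passages, with a fold of 7.29. The 5 regions with the largest upward difference in Sox2 percentile had Sox2 folds of 10.5 to 23.5 at 24 h and 5.73 to 6.93 in serum, and all 5 were called for Sox2 at 3 passages. The 5 with the largest downward difference had 3.79 to 4.36 at 24 h and 19.3 to 30.3 in serum, and 3 of them were called at 3 passages. Over all 3165 regions the share called for Sox2 at 3 passages was 60.3% (background 17.1%).

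For Nanog, chr6:39297604-39298870 had a fold of 25.4 at 24 h (percentile 85.1) and 5.95 in serum (1.70), was not called in GFP-high serum, and had folds of 30.8 in TKO cells and 6.38 in KH2 cells with lot 2. Its Sox2 fold was 4.30 at 24 h and 11.0 in serum, and its Sox2 and Nanog summits were 338 and 377 bp apart. The region chr15:76990417-76991123 had Nanog folds of 43.5 and 8.61 and Sox2 folds of 12.8 and 7.82. At the other end, chr5:14031488-14032701 had a Nanog fold of 7.17 at 24 h and 31.3 in serum and a Sox2 fold of 3.89 and 14.1, and outside the rule was called only in GFP-high serum, with a Nanog fold of 12.9. The 5 regions with the largest upward difference in Nanog percentile had Nanog folds of 22.1 to 43.5 at 24 h and 5.95 to 8.61 in serum, and the 5 with the largest downward difference 6.32 to 7.17 and 22.6 to 31.3. In GFP-high serum 2 of the first 5 were called, and all 5 with a downward difference. Of the 5 regions with the largest downward difference in Nanog percentile, chr14:106250421-106251291 was the only one with a TKO peak, with a fold of 7.62. All 5 with the largest upward difference had a TKO peak, with folds of 10.03 to 30.8. Over all 3165 regions 67.3% had a TKO peak (background 44.7%) and 91.1% a GFP-high peak (background 45.1%). The regions were picked as extremes of the 24 h and serum lists, so these counts are a description.

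H3K4me3, a histone mark found mainly at active promoters, was called at few of the regions. It was called at 303 (9.57%, 8.57 to 10.7) in serum, 251 (7.93%, 7.01 to 8.93) at 24 h and 346 (10.9%, 9.87 to 12.1) at 3 passages, where the backgrounds were 11.7%, 10% and 11.9%. Nanog-alone regions reached 16.1%, 14.1% and 15.7%, and Oct4-Sox2-Nanog regions 11.8%, 10.4% and 14.4%. Any of the 3 lists called 427 regions (13.5%, background 13.8%), so 2738 had no H3K4me3 peak in any condition. All 3 lists called 209 (6.60%, background 9.08%). H3K4me3 was called only in serum in 49 regions (1.55%, background 1.21%), only at 24 h in 18 (0.569%, background 0.297%) and only at 3 passages in 96 (3.03%, background 1.6%). In Oct4-Sox2-Nanog regions these shares were 1.33%, 0.715% and 4.08%. The share of regions with H3K4me3 in each condition was thus near or slightly below the background.

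The difference from Oct4-Sox2-Nanog regions in H3K4me3 was −2.23 points (−3.79 to −0.683) in serum, −2.45 points at 24 h and −3.46 points at 3 passages. Where an H3K4me3 peak had to cover the Nanog serum summit, the differences were 0.608, −0.00962 and −0.532 points, with intervals that include 0. Where the overlap had to reach 50% of the shorter interval, they were −1.58, −2.55 and −4.07 points. The part of region width was not tested. Within the regions without Oct4, H3K4me3 went with weak Nanog. Through the quartiles of Nanog serum fold, serum H3K4me3 was called in 14.9%, 7.66%, 6.38% and 5.49%, against 15.5%, 11.8%, 12.2% and 10.1% of Oct4-Sox2-Nanog regions. The median distance to a serum H3K4me3 peak was 35006 bp, against 37197 bp for Oct4-Sox2-Nanog regions. Among the regions with large Sox2 differences, chr2:126377844-126379241 carried H3K4me3 in all 3 conditions, with folds of 20.5 in serum, 6.66 at 24 h and 9.99 at 3 passages, and Sox2 folds of 4.25 at 24 h and 23.8 in serum.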

How the data were processed

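The authors deposited the peaks as narrowPeak tables. Per the submitters' processing notes, BWA 0.5.7, Bowtie 0.12.7 and MACS2 are among the tools and mm9 is the build; the sources used here do not name the aligner of each list. For every peak the deposited columns used are a fold enrichment (the ratio to the control), a −log10 q and the offset of the summit. The 14 lists come from 22 samples; 8 have 2 samples in the labels and 6 have 1, and the sources used here do not say how the authors combined samples. The labels call the molecule of the Sox2 libraries RNA, yet name an antibody, and they were used as ChIP-seq. H3K27me3, whole-cell extract and RNA samples were not used here.

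Peaks were merged at 1 bp overlap, and any peak of a list within a merged region counted as a call. The fold of a region in a list is that of its peak with the largest fold. Its −log10 q and summit are those of the same peak. Shares carry Clopper-Pearson and differences Newcombe 95% intervals. No test was run, since each condition has 1 list. The members and lists were chosen with earlier results of these data known. The regions named are from the 10 with the best mean percentile of fold over the 4 lists, the 5 with the largest difference in percentile each way for each factor, those nearest the limits of the rule, the largest runs, the widest, and those in no other list. Positions are mm9, counted from 1. No annotation of that build was used, so no region was placed in a gene, exon or intron, no sequence is shown, and the planned count of gene lists was not made. The code, in Python 3.11.15 with pandas 2.3.3 and scipy 1.17.1, was tested on simulated lists and against bedtools. Other settings were a floor of 10 on −log10 q in every list, equal lengths of the defining lists, and an overlap of 50% of the shorter interval. Further ones were joining peaks across gaps of up to 1000 bp, no Oct4 peak within 1000 bp, and dropping X and Y. Chosen after seeing the data were the higher floor within each factor, a peak that covers the Nanog serum summit, and dropping chromosomes 6 and 8.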

Additional observations from a re-analysis of the deposited data

How the results depend on the processing

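Under alternatives, 86 of 146 shares and differences stayed within the interval of the reported value, 59 left it and 1 changed sign, and 5 of 8 numbers of regions stayed within 1.5 times the reported 3165. Of 73 differences between regions without Oct4 and Oct4-Sox2-Nanog regions, 70 were below 0. Lists below are given in the order Nanog at 3 passages, Sox2 at 3 passages, Nanog TKO, Nanog KH2 at 24 h with lot 2 and Nanog GFP-high, shares first. With a floor of 10 on −log10 q in every list, those outside the rule included, 1542 regions were left. The shares were 97.8%, 69.6%, 76.1%, 82.4% and 95.5% and the differences −1.28, −17.1, −13.8, −10.5 and −2.12 points. H3K4me3 was then at 8.37% in serum and 5.25% at 24 h. With the 6 lists cut down to the number of peaks of the shortest, 421 regions were left, with 100%, 96.9%, 92.2%, 98.1% and 100%, and 0, −1.53, −4.73, −1.67 and 0 points. H3K4me3 was then at 6.65% in serum, 6.65% at 24 h and 7.36% at 3 passages, with differences of −4.48 points in serum and −6.72 at 3 passages. With equal length within a factor, 3305 regions met the rule, and the shares were 98.0%, 65.7%, 73.4%, 78.5% and 93.6%, and the differences −1.53, −24.2, −16.9, −14.7 and −4.36 points. With the higher floor within each factor, 762 regions were left, with 98.8%, 91.7%, 82.4%, 89.9% and 97.6%, and −0.392, −3.86, −9.33, −4.81 and −0.645 points. H3K4me3 was then at 7.74% in serum and 9.45% at 3 passages, with −3.81 and −5.17 points. An overlap of 50% of the shorter interval put H3K4me3 at 7.41% in serum, 5.93% at 24 h and 7.88% at 3 passages. Cover of the Nanog serum summit put it at 6.26%, 4.11% and 5.59%, with differences of 0.608, −0.00962 and −0.532 points, the first of which changed sign. The cause was not tested. Joining peaks, removing members with Oct4 within 1000 bp, and leaving out X and Y moved no value beyond its interval. Chromosomes 6 and 8 were left out only for the share and difference of Nanog in TKO cells, which stayed within their intervals. Unknown depth and the floor of the Oct4 lists limit what a missing peak can show. No paired analysis was possible because each condition has 1 list and no value per replicate.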
